A study of Mus musculus with 4 samples.

Results

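The 10 genes described here are core genes of astrocyte homeostasis, a fixed list out of 32285 genes counted: Agt, Aqp4, Gfap, Slc1a2, Slc1a3, Gja1, Gjb6, Slc6a11, Glul and Aldoc. They were followed in single-nucleus RNA sequencing of the mouse hypothalamus. Nuclei came from adult male wild-type (WT) mice and from TRα1+m mice, which carry 1 mutant and 1 normal copy of the thyroid hormone receptor TRα1 in every tissue and were bred on the C57/BL6NCr background. Each genotype had 2 libraries, 1 from each of 2 experimental repeats, and each library held nuclei pooled from 3 mice, so single animals could not be told apart. The submitters' annotation placed 56386 nuclei in clusters, and the transcripts (unique molecular identifiers, UMIs) of each gene were summed per library over the astrocyte sub-cluster, the tanycyte sub-cluster and the other main clusters. Levels are given as UMIs per 1000000 UMIs of that group of nuclei (CPM), and reads in introns and exons both counted, so levels are compared between groups of nuclei and not between genes. The library is the unit of replication, with n = 2 per genotype and n = 2 per repeat.

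Astrocytes take up transmitters, buffer water and ions at vessel-facing endfeet, and pass small molecules to each other through gap junctions. Slc1a2 (GLT-1) and Slc1a3 (GLAST) clear glutamate from the synaptic cleft, Slc6a11 (GAT-3) clears GABA, and Glul (glutamine synthetase) turns the recovered glutamate into glutamine. Aqp4 is the endfoot water channel, Gja1 (connexin 43) and Gjb6 (connexin 30) form the gap junctions, Gfap is the intermediate filament protein of fibrous and reactive astrocytes, Aldoc is a glycolytic aldolase, and Agt (angiotensinogen) is the precursor of the angiotensins. Tanycytes are the radial glia that line the floor and lower walls of the third ventricle and share several of these genes with astrocytes. Thyroid hormone receptors bind DNA at elements built from the sequence AGGTCA.

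Because the mutation lies in such a receptor, the AGGTCA matches upstream of the 10 genes are shown here as a map of the letters present. RefSeq promoter entries (GRCm38.p6) were at hand for 9 of the 10 genes, Aqp4 being the exception. In the 250 bases before the gene start, AGGTCA on either strand was found for 3 of these genes, Glul, Slc6a11 and Gfap, and in 14.0% of all 32851 promoter entries. The direct repeat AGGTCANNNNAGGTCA was found for 0 of them and in 0.0152% of all entries. Each 30-base window is written 5′ to 3′ on the strand of its gene, with the match in capitals. The Gfap match lies on the opposite strand and therefore reads TGACCT.
Glul: gtttcctggcctAGGTCAgccaatcaaggc
Slc6a11, first match: caggtgggcgcaAGGTCAaggtattaaggg
Slc6a11, next match: gctgggcgcacaAGGTCAagtcactggact
Gfap: ctctgggtacagTGACCTcagtggggtgag

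The Glul window is at chr1:153899860-153899889 on the plus strand, its match begins 57 bases before the gene start, and the window lies inside the opposite-strand gene Teddm2 and outside the exons of Glul. The Slc6a11 windows are at chr6:114131013-114131042 and chr6:114131047-114131076 on the plus strand, with matches 216 and 182 bases before the start and no annotated gene across them. The Gfap window is at chr11:102897268-102897297 on the minus strand, with its match 85 bases before the RefSeq start. It falls in an intron of a longer GENCODE model of Gfap and within Gm26668 on the other strand. A match describes the letters only, and binding was not measured.

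Going from WT to TRα1+m, the astrocyte sub-cluster counted 2028 and 2432 nuclei for repeat 1 and 1861 and 1686 for repeat 2. The tanycyte sub-cluster counted 414 and 425, then 389 and 261. Median depth in astrocytes ran from 1662.5 to 2200 UMIs per nucleus, and any pair of libraries shared 44 to 64 cell barcodes. The TRα1+m library of repeat 2 stands apart, with 852 nuclei in the Neurons_2 cluster against 1 to 6 in the other libraries, and with 36 nuclei labelled VLMC (vascular leptomeningeal cells) against 0 to 2. In the astrocyte sub-cluster all 7 astrocyte markers were detected, with a summed level of 6152 to 9682 CPM, and the 6 neuronal markers summed to 618 to 910 CPM. In the tanycyte sub-cluster all 11 tanycyte markers were detected, with sums of 7029 and 5896 CPM in repeat 1 and 11466 and 13522 CPM in repeat 2, while the 5 ependymal markers summed to 1409 and 2032 CPM in repeat 1 and 329 and 431 CPM in repeat 2. The tanycyte sub-cluster therefore held fewer ependymal transcripts in repeat 2 in both genotypes, as did all nuclei pooled. The part of this in the results below was not tested.

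Astrocytes had the highest mean level of each of the 10 genes among the 6 groups of nuclei compared: astrocytes, tanycytes, the neurons of the Neurons_1 cluster, microglia with macrophages, oligodendrocytes and their progenitor cells (OPCs). The study named its astrocytes with Agt, Aqp4, Slc1a2 and Slc1a3, and the clusters rest on the same counts, so these levels are a description with no test. For 8 genes the lowest astrocyte library lay above the highest library of every other group. How often this holds among all genes was not computed. Agt averaged 1362 ± 808 CPM (SD, n = 4) in astrocytes and 132 ± 35 in microglia, the next group. Slc6a11 averaged 1895 ± 663 CPM in astrocytes and 267 ± 38 in tanycytes, and Aqp4 averaged 447 ± 214 and 98.3 ± 29.4. Agt, Slc6a11 and Aqp4 were thus the genes with the steepest fall from astrocytes to the next group, 10.3-fold, 7.11-fold and 4.55-fold.

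For the glutamate transporters and connexin 43 tanycytes were the next highest group after astrocytes, as they were for Aqp4 and Slc6a11. Slc1a3 averaged 1894 ± 67 CPM in astrocytes and 1081 ± 183 in tanycytes, which were 2.96-fold above microglia. Slc1a2 averaged 3189 ± 452 CPM in astrocytes, 829 ± 93 in tanycytes and 569 ± 55 in OPCs. Gja1 averaged 1048 ± 277 CPM in astrocytes, 347 ± 37 in tanycytes and 165 ± 29 in microglia, with no overlap between these 3 groups. Its partner Gjb6 did not follow, at 193 ± 74 CPM in astrocytes but 20.1 ± 7.1 in tanycytes, a level that overlapped those of oligodendrocytes and OPCs. Connexin 30 was therefore low in tanycytes while connexin 43 was not, although this contrast within tanycytes was not tested.

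Glul and Aldoc were not particular to astrocytes. Glul averaged 310 ± 7 CPM in astrocytes, 258 ± 114 in oligodendrocytes and 247 ± 34 in microglia, and neighbouring groups in this order overlapped. Aldoc averaged 405 ± 35 CPM in astrocytes, 345 ± 26 in microglia and 315 ± 46 in oligodendrocytes, again with overlap. Gfap averaged 146 ± 46 CPM in astrocytes, 52.5 ± 22.5 in microglia, 44.7 ± 18.5 in oligodendrocytes and 38.9 ± 11.7 in tanycytes, and the last 3 overlapped. In Neurons_1 each gene had its lowest mean, from 7.3 CPM for Gjb6 to 161 CPM for Slc1a2.

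**Figure D1:**
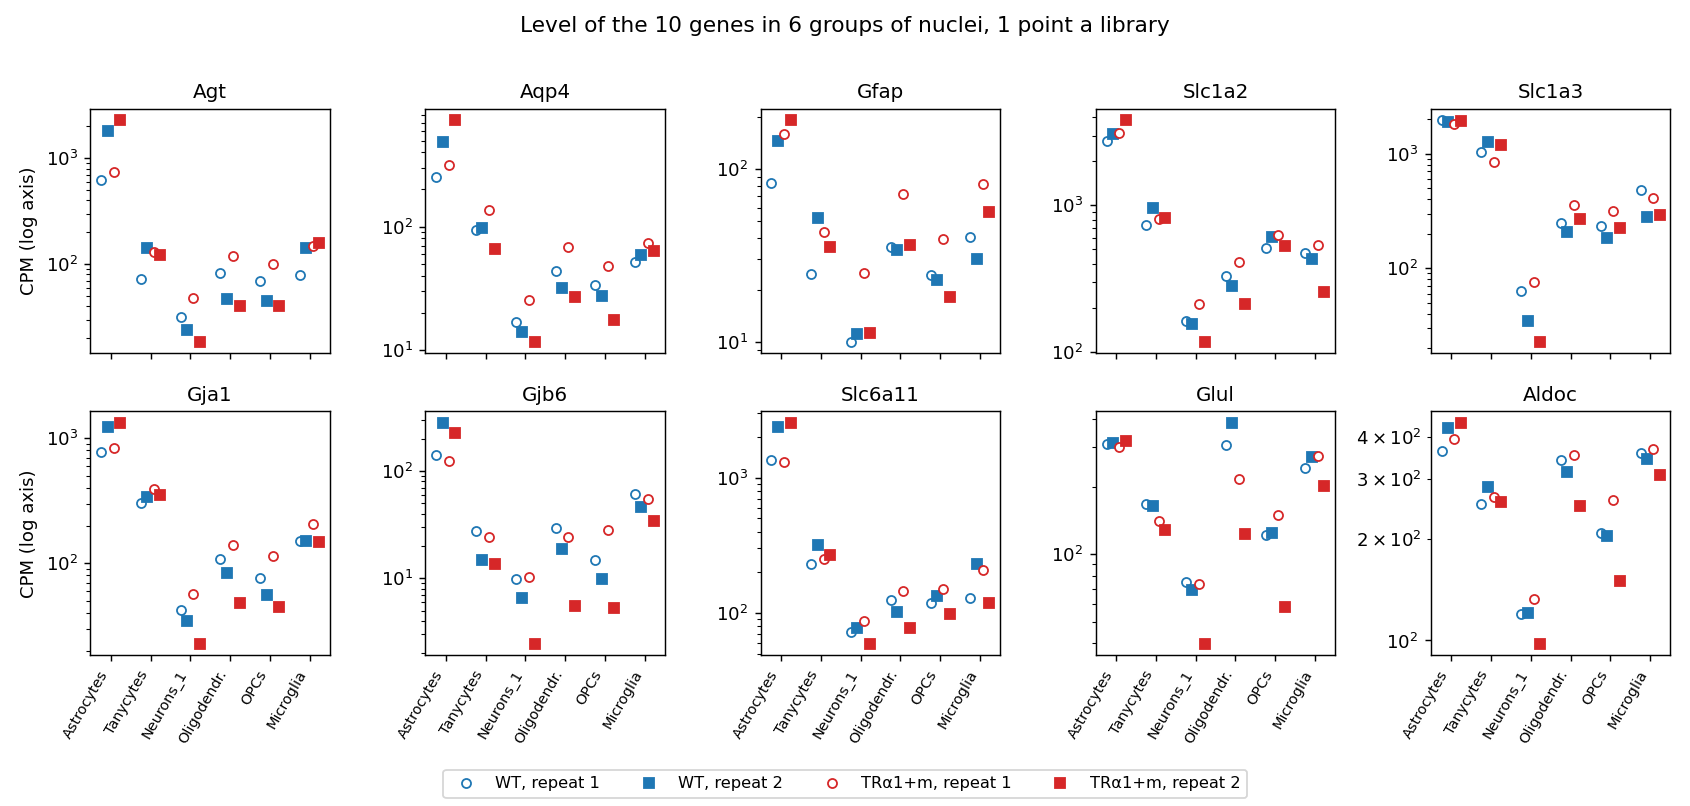
Level (CPM, log axis) of the 10 genes in 6 groups of nuclei, 1 point a library, blue for WT and red for TRα1+m, open circles for repeat 1 and filled squares for repeat 2. In astrocytes the filled squares of Agt, Aqp4, Gja1, Gjb6 and Slc6a11 lie above the open circles, and in oligodendrocytes and OPCs the order is mostly the other way.

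Although astrocytes supplied only 7.3% to 7.8% of all UMIs, they held 51.6% to 87.2% of the Agt UMIs of a library and 55.1% to 66.2% of those of Slc1a3. For Glul they held 21.1% to 33.4%, and for Aldoc 17.2% to 23.6%. The astrocyte share of Agt was 57.0% and 51.6% in the WT and TRα1+m libraries of repeat 1 and 81.4% and 87.2% in those of repeat 2. The share of Agt UMIs found in Neurons_1 moved the other way, 31.4% and 34.4% in repeat 1 and 12.2% and 7.1% in repeat 2. Over all nuclei pooled, Agt stood at 82.4 and 113 CPM in repeat 1 and 161 and 198 CPM in repeat 2, so its repeat difference was also visible without the cluster labels.

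**Figure D2:**
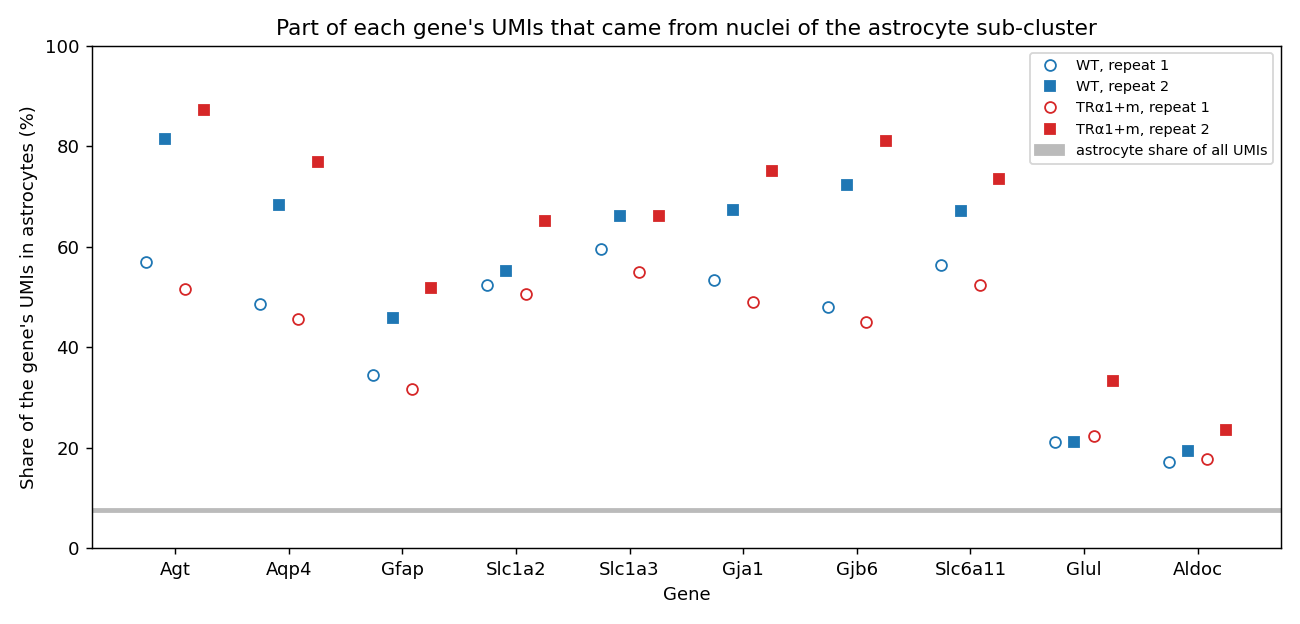
Percent of each gene's UMIs in a library that lay in astrocyte nuclei, 1 point a library, with the grey band at the astrocyte share of all UMIs. For Agt the 2 libraries of repeat 1 lie at 57.0% and 51.6% and those of repeat 2 at 81.4% and 87.2%.

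Comparing all nuclei at 900 UMIs each, Slc1a2 was seen in 87.4% to 93.5% of astrocyte nuclei and Slc1a3 in 74.9% to 78.8%. Agt was seen in 43.1% (95% exact binomial interval 41.0% to 45.3%) and 46.8% of astrocyte nuclei in repeat 1 and in 76.1% and 80.4% in repeat 2. In neurons, which should lack it, Agt was seen in 2.1% to 4.8% of nuclei at the same depth. Slc6a11 was seen in 66.8% and 67.1% of astrocyte nuclei in repeat 1 and in 87.2% and 88.8% in repeat 2. The repeats therefore differed in the share of astrocyte nuclei that showed Agt or Slc6a11. At a fixed depth this share rises with the mean level, so it is not a result apart from the summed level. Glul was seen in 22.8% to 25.7% of astrocyte nuclei and 11.9% to 29.2% of oligodendrocyte nuclei, and Aldoc in 27.4% to 31.0% and 21.2% to 29.7%. Without thinning Agt was seen in 64.9%, 93.3%, 67.5% and 93.7% of the astrocyte nuclei of WT repeats 1 and 2 and TRα1+m repeats 1 and 2, and intervals cover counting error only.

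**Figure D3:**
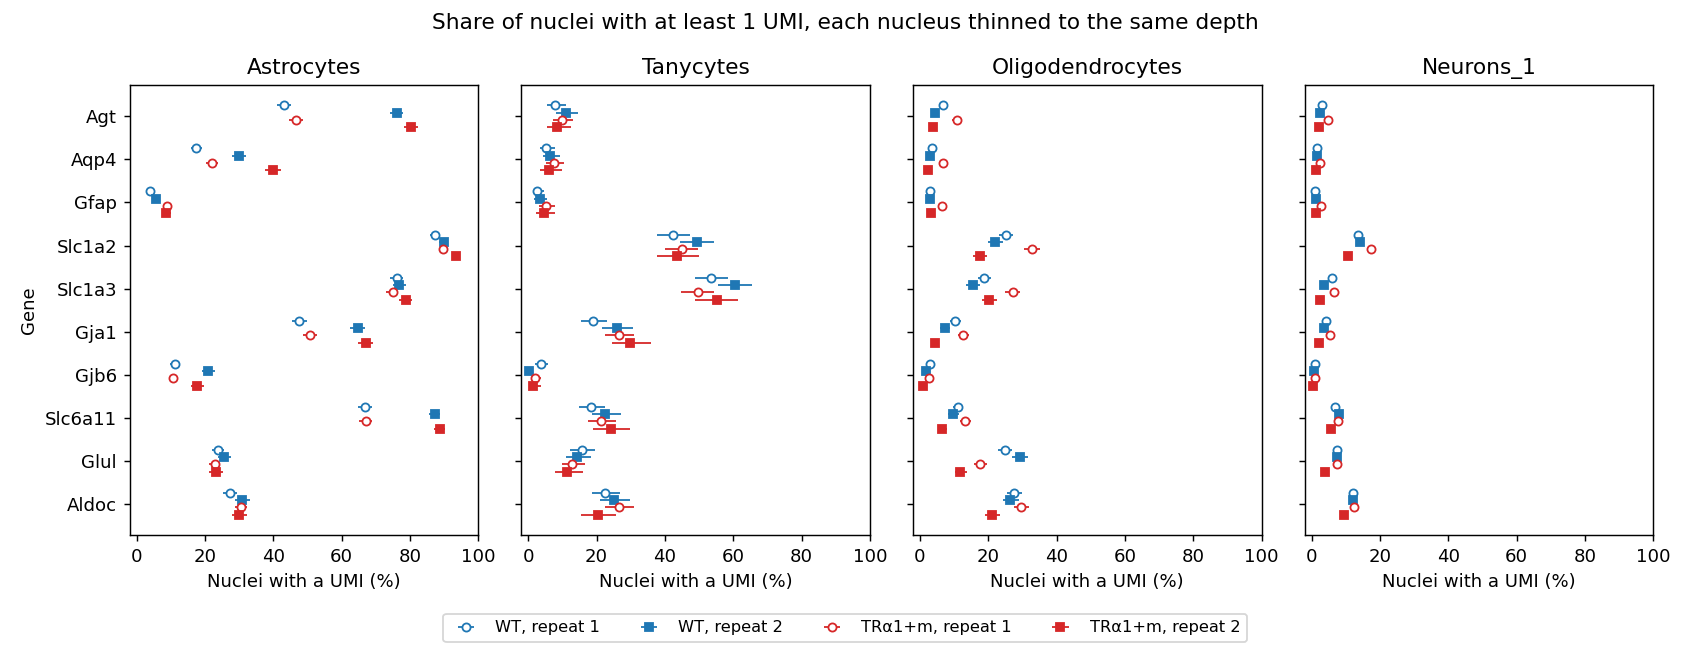
Percent of nuclei with at least 1 UMI of each gene after every nucleus was thinned to 900 UMIs, in 4 groups of nuclei, with 95% exact binomial intervals as bars and colours as above. In astrocytes the repeats separate for Agt, Aqp4, Gja1, Gjb6 and Slc6a11, and all points of Gfap lie below 10%.

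Among the 10 genes Gfap was seen in the fewest astrocyte nuclei. Gjb6 was also sparse, at 11.2% of WT repeat 1 astrocyte nuclei after thinning. In the TRα1+m library of repeat 1 the thinned means were similar, 0.108 UMIs per nucleus for Gfap and 0.113 for Gjb6. After thinning Gfap was seen in 4.0% and 5.8% of WT and in 9.0% and 8.7% of TRα1+m astrocyte nuclei. The shares in oligodendrocyte nuclei were 2.99% and 3.01% in WT and 6.47% and 3.18% in TRα1+m. The astrocyte share lay above the oligodendrocyte share in 4 of 4 libraries, with overlapping 95% intervals in WT repeat 1, and in the TRα1+m library of repeat 1 both were high. A small set of astrocyte nuclei held 5 or more Gfap UMIs: in repeat 1 these were 5 WT and 17 TRα1+m nuclei, in repeat 2 they were 19 WT and 22 TRα1+m nuclei. They were 0.247% to 1.3% of astrocyte nuclei and held 34.0% to 58.0% of the astrocyte Gfap UMIs. In oligodendrocytes 1 nucleus reached this level in WT repeat 1 and 0 in the other libraries. The threshold of 5 was chosen after the values were seen.

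The Gfap-rich nuclei differed from the remaining astrocytes in other members of the list. Aqp4 stood at 1329 and 3302 CPM in those of WT and at 1868 and 4202 CPM in those of TRα1+m, against 245, 434, 287 and 640 CPM in the remaining astrocytes, higher in 4 of 4 libraries. Aldoc was also higher there in 4 of 4 libraries, at 721, 1144, 525 and 801 CPM against 359, 410, 392 and 430, and so were Agt, at 1405, 2760, 1036 and 3193 CPM against 623, 1770, 739 and 2263, and Gja1, at 1329, 1309, 998 and 1437 CPM against 779, 1228, 839 and 1336. Slc6a11 was lower in 4 of 4 libraries, at 721, 1238, 1139 and 1986 CPM against 1344, 2399, 1311 and 2570, and so were Slc1a3 and Gjb6. Gjb6 rested on only 3 and 19 UMIs in these nuclei of WT and on 8 and 9 in those of TRα1+m. The Gja1 levels lay close together outside WT repeat 1, and counting error was not tested for these small sets of nuclei. These nuclei were deeper, with medians of 3375 to 5471 UMIs against 1656 to 2193 in the rest, and the part of depth was not tested.

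**Figure D4:**
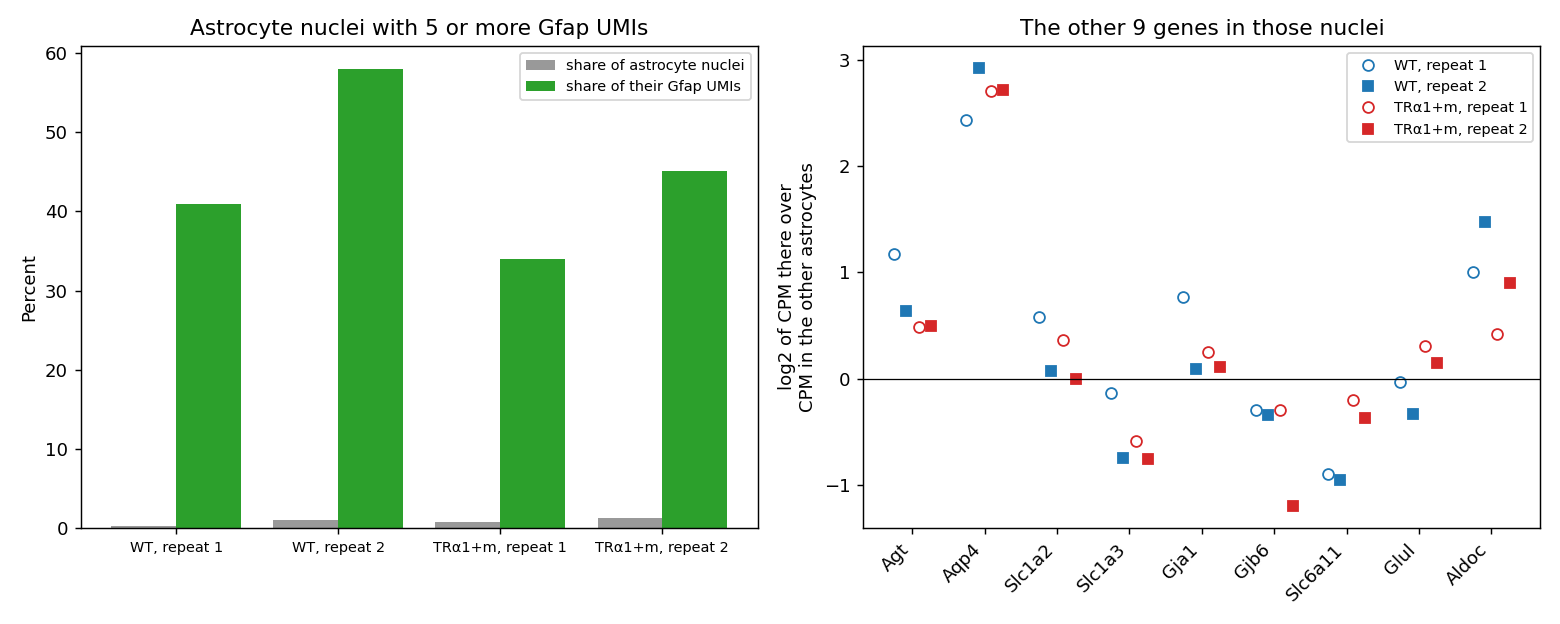
Left, share of astrocyte nuclei with 5 or more Gfap UMIs (grey) and their share of the astrocyte Gfap UMIs (green) by library. Right, log2 ratio of the level of the other 9 genes in those nuclei to that in the remaining astrocytes, 1 point a library; Agt, Aqp4, Gja1 and Aldoc lie above 0 and Slc1a3, Gjb6 and Slc6a11 below 0 in all 4 libraries.

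The first question was whether the mutant receptor altered these genes. In astrocytes 0 of the 10 passed the test for genotype, and the same was true of tanycytes, Neurons_1, oligodendrocytes, OPCs and microglia. Among all 14072 genes tested in astrocytes edgeR called 0 (0%), 312 had an unadjusted p under 0.05, and DESeq2 called 2. In tanycytes edgeR called 0 of 11217 (0%), with 155 at an unadjusted p under 0.05 and 0 by DESeq2, and in oligodendrocytes 13 of 12630 (0.103%). In Neurons_1, OPCs and microglia it called 0 genes each (0%), with 193, 185 and 226 at an unadjusted p under 0.05 and 1, 1 and 0 called by DESeq2. With 2 pools against 2, an exact permutation test of a single gene could not go below p = 0.333.

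The 2 repeats are independent experiments that each held both genotypes. When the repeat was added to the model as a block, 2 of the 10 genes were called in astrocytes, Gfap and Aqp4, both higher in TRα1+m, where 1.74% of all genes were called and 1.04% were higher. Gfap stood at 83.1 and 146 CPM in the WT and at 161 and 193 CPM in the TRα1+m libraries of repeats 1 and 2. The TRα1+m libraries were both above the WT libraries, where the genotypes did not overlap for 25.6% of all genes tested in astrocytes. The blocked log2 fold change was 0.67 ± 0.13 (SE, adjusted p = 6.26e-05), and the value without the block was 0.64 ± 0.26 (adjusted p = 1.00). In Neurons_1 Gfap stood at 10.0 and 11.1 CPM in WT and at 25.2 and 11.2 CPM in TRα1+m. The TRα1+m library of repeat 1 was thus high in neurons as well. In microglia Gfap stood at 40.7 and 30.3 CPM in WT and at 82.2 and 56.7 CPM in TRα1+m, without a call. In tanycytes and OPCs it was higher in TRα1+m in repeat 1 only. The part of these differences in the astrocyte value was not tested.

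Aqp4 stood at 253 and 491 CPM in WT and at 315 and 731 CPM in TRα1+m astrocytes of repeats 1 and 2. The mutant was higher within each repeat, but the genotypes overlapped because the repeats differed more. Its blocked log2 fold change was 0.45 ± 0.12 (SE, adjusted p = 0.0156), against 0.50 ± 0.49 without the block. Without the TRα1+m library of repeat 2 the unblocked value turned to -0.23 ± 0.38. That fit set WT repeats 1 and 2 against TRα1+m repeat 1 with no repeat term, so the repeat difference entered its genotype value. DESeq2 with the block gave adjusted p = 0.734 for Gfap and 1.00 for Aqp4 and called 0 of the 10 genes, where it called 0.0924% of all.

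The transporters and enzymes of astrocytes gave small genotype values. Slc1a2, at 2747 and 3049 CPM in WT and 3144 and 3818 CPM in TRα1+m, did not overlap between genotypes. Nor did 25.6% of all genes tested in astrocytes. The log2 fold change of Slc1a2 was 0.27 ± 0.14 (SE). Slc1a3 stood at 1959, 1908, 1800 and 1909 CPM, with -0.06 ± 0.12, and Glul at 310, 312, 301 and 319 CPM, with -0.0042 ± 0.14. The blocked values of these 3 genes were not called either. Slc6a11 gave 0.07 ± 0.41, Agt 0.34 ± 0.69, Gja1 0.12 ± 0.29, Gjb6 -0.27 ± 0.42 and Aldoc 0.09 ± 0.15. The wide errors of Agt, Gjb6 and Slc6a11 include the distance between repeats, and the adjusted p was 1.00 for each of these genes.

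In tanycytes 0 of the 10 genes were called for genotype with the block as well, where 0.481% of 11217 genes were called. Gja1 stood at 304 and 338 CPM in WT and 393 and 353 CPM in TRα1+m tanycytes, and Glul at 167 and 164 CPM against 140 and 129. The genotypes did not overlap for these 2 of the 10 genes, nor for 25.8% of all genes tested in tanycytes. The genotype effect was compared directly between tanycytes and astrocytes by an interaction term. It was called for 0 of the 10 genes with or without the block, against 0.00706% and 0.29% of 14160 genes, with Gfap at -0.53 ± 0.28 (SE, log2, tanycytes minus astrocytes).

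In oligodendrocytes, Glul was the member with the largest genotype value. It stood at 308 and 386 CPM in WT and at 217 and 123 CPM in TRα1+m, so both mutant libraries lay below both WT libraries. The genotypes did not overlap for 32.3% of all genes tested in oligodendrocytes. The log2 fold change of Glul was -0.96 ± 0.28 (SE, adjusted p = 0.553). With the block it was -0.999 ± 0.18 (adjusted p = 9.3e-05), where 4.35% of 12630 genes were called, 2.14% higher and 2.22% lower. At 900 UMIs per nucleus Glul was seen in 24.8% and 29.2% of WT and in 17.6% and 11.9% of TRα1+m oligodendrocyte nuclei. Without the TRα1+m library of repeat 1 the value without the block was -1.41 ± 0.25 (adjusted p = 0.00169), and DESeq2 with the block gave adjusted p = 1.00. The log2 ratio of CPM was -1.65 in repeat 2 and -0.51 in repeat 1, and in the TRα1+m library of repeat 2 Glul was also low in Neurons_1, at 39.7 CPM against 69.2 to 75.0 in the other libraries, in OPCs, at 57.8 against 121 to 149, and in microglia, at 201 against 243 to 273. The part of this library in the oligodendrocyte value was not tested beyond leaving it out, when the value without the block was -0.63 ± 0.24 (adjusted p = 0.605). The blocked difference between oligodendrocytes and astrocytes in the genotype effect on Glul was -0.98 ± 0.15 (adjusted p = 2.76e-08, where 2.52% of 14259 genes were called). Glul was the sole member called in the 5 such comparisons with astrocytes. Of these only that with tanycytes was planned, and the others were added after the data were seen.

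With the block, Gfap and Slc1a3 were also called in oligodendrocytes, both higher in TRα1+m. Gfap stood at 35.5 and 34.3 CPM in WT and at 72.4 and 36.4 CPM in TRα1+m, with a blocked value of 0.66 ± 0.19 (SE, adjusted p = 0.0292). Most of this came from 1 library, since without the TRα1+m library of repeat 1 the unblocked value was 0.14 ± 0.29. Slc1a3 stood at 247 and 207 CPM against 359 and 267 CPM, with 0.52 ± 0.16 (adjusted p = 0.032). DESeq2 with the block called 0 of the 10 in oligodendrocytes, where it called 1.08% of all genes, with adjusted p = 1.00 for Gfap and 0.457 for Slc1a3. In Neurons_1, OPCs and microglia 0 of the 10 were called with the block, where 0.01%, 0.569% and 0.335% of genes were called.

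**Figure D5:**
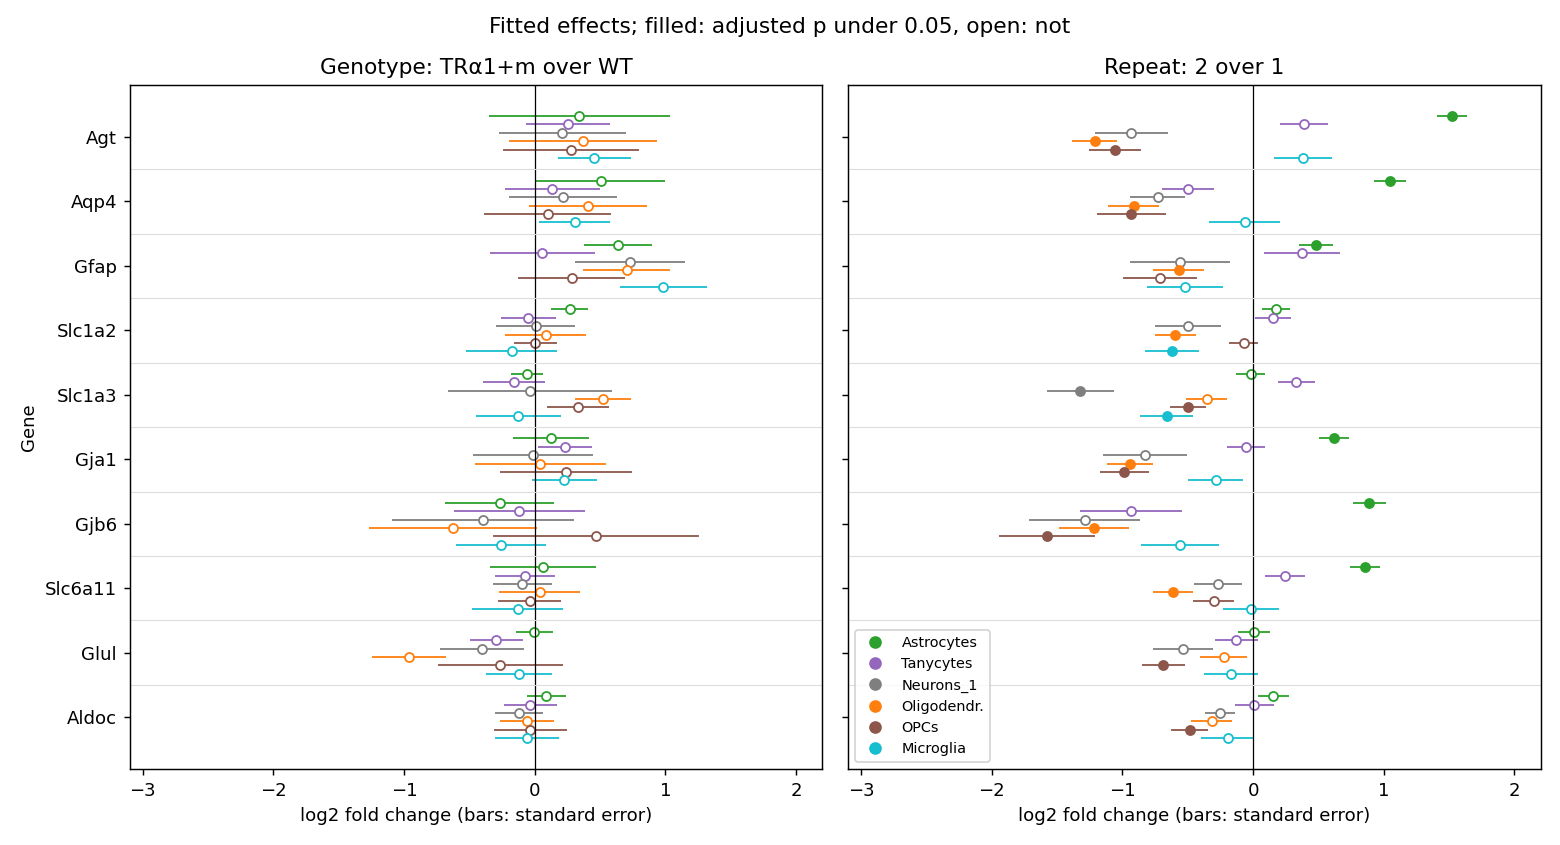
Fitted log2 fold changes of the 10 genes in 6 groups of nuclei, with standard errors as bars and filled points where the adjusted p was under 0.05. Left, genotype without the block. Right, repeat 2 over repeat 1, fitted beside genotype, so the models of the panels differ. No point is filled on the left; on the right the 6 filled astrocyte points lie above 0 and the filled points of the other groups below 0.

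In the model that held both terms, more astrocyte genes were called for repeat than for genotype, 17.4% against 1.74%. This did not hold for the size of every member's change, since for Gfap and Slc1a2 the genotype value in astrocytes was the larger. In astrocytes 6 of the 10 genes were called for repeat 2 against repeat 1 and all 6 were higher, where 17.4% of 14072 genes were called and 8.42% were higher. Agt stood at 628 and 744 CPM in the WT and TRα1+m libraries of repeat 1 and at 1790 and 2287 CPM in those of repeat 2. It was 2.85-fold higher in WT and 3.07-fold higher in TRα1+m, with a log2 fold change of 1.52 ± 0.12 (SE, adjusted p = 1.71e-36). Aqp4 was 1.94-fold and 2.32-fold higher in repeat 2, with 1.05 ± 0.12 (adjusted p = 6.65e-16). The repeats did not overlap for either gene. This was so for 7 of the 10 members, among them Glul and Aldoc, which were not called for repeat. The share of all genes without overlap between repeats was not computed.

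The GABA transporter and both connexins rose with them. Slc6a11 stood at 1340 and 1308 CPM in repeat 1 and at 2376 and 2555 CPM in repeat 2, with a log2 fold change of 0.86 ± 0.11 (SE, adjusted p = 2.2e-12). Gjb6 stood at 140 and 125 CPM and then at 283 and 224 CPM, with 0.89 ± 0.13 (adjusted p = 1.63e-10), and Gja1 at 782 and 842 CPM and then at 1230 and 1339 CPM, with 0.62 ± 0.11 (adjusted p = 1.89e-06). Within a genotype the repeat ratios of these 3 genes lay between 1.57-fold and 2.02-fold. Gfap was called at 0.48 ± 0.13 (adjusted p = 0.00225), but its repeats overlapped, and without 1 library its value ran from 0.05 to 0.97 and was not called.

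The glutamate pathway and the aldolase did not pass the same test. The repeat value was 0.18 ± 0.11 (SE, log2) for Slc1a2, -0.02 ± 0.11 for Slc1a3, 0.01 ± 0.12 for Glul and 0.15 ± 0.12 for Aldoc, with adjusted p from 0.296 to 0.985. With every nucleus thinned to 900 UMIs, Agt, Aqp4, Slc6a11, Gjb6 and Gja1 remained called, at 1.49, 0.99, 0.90, 0.88 and 0.65, whereas Gfap at 0.36 was not. With 1 library left out and no genotype term, Agt and Slc6a11 were called in each of the 4 fits, Gjb6 was lost without the TRα1+m library of repeat 1 (0.80, adjusted p = 0.0836), Aqp4 without the WT library of repeat 1 (0.93, adjusted p = 0.0861), and Gja1 without either of these libraries. Without the genotype term and with all libraries 5 were called. The share of all genes called also moved between these alternative fits, and their counts of members are not set against it.

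Tanycytes did not show the astrocyte pattern. There 0 of the 10 genes were called for repeat by edgeR, where 14.1% of 11217 genes were called, and 0 by DESeq2, which called 2.51%. Agt stood at 73.0 and 130 CPM in repeat 1 and at 143 and 123 CPM in repeat 2 of WT and TRα1+m, and Aqp4 at 93.4 and 137 and then at 96.5 and 65.9 CPM. The repeats overlapped for both genes. In fits without 1 library, Aqp4 was called lower without either WT library (-0.78 and -0.86) and Agt higher without the TRα1+m library of repeat 1 (0.81). The interaction term, tanycytes minus astrocytes, was called for 5 of the 10 genes, all lower, where 3.67% of 14160 genes were called and 2.44% were lower. It was -1.15 ± 0.20 (SE, log2, adjusted p = 3.11e-06) for Agt, -1.55 ± 0.20 for Aqp4, -1.85 ± 0.36 for Gjb6, -0.68 ± 0.16 for Gja1 and -0.61 ± 0.17 for Slc6a11. These are the genes, apart from Gfap, that were called in astrocytes. Between the fits without 1 library the share of all genes called moved too, and their counts of members are not set against it. In fits without a genotype term Aqp4 stayed called whichever library was left out, between -1.05 and -2.19. Agt was not called without the TRα1+m library of repeat 1 (-0.79, adjusted p = 0.181) or that of repeat 2 (-0.88, adjusted p = 0.0948), and 2 to 4 of the 10 genes were called in these 4 fits.

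In the other main clusters the members were lower in repeat 2 wherever they were called. In oligodendrocytes 7 of the 10 were called, all lower, where 12.4% of 12630 genes were called and 7.27% were lower. Agt stood at 82.2 and 120 CPM in repeat 1 and at 46.8 and 40.0 CPM in repeat 2 of these nuclei, a log2 fold change of -1.21 ± 0.17 (SE, adjusted p = 4.16e-08), and Gjb6 gave -1.22 ± 0.27. In OPCs 7 of the 10 were called, all lower, where 11.4% of 11248 genes were called and 5.68% were lower, with Gjb6 at -1.57 ± 0.37 and Agt at -1.06 ± 0.20. Slc1a2 was at 514 and 624 CPM in repeat 1 and at 609 and 529 CPM in repeat 2 of OPCs, without a call. In microglia 2 of the 10 were called, Slc1a2 and Slc1a3, both lower, where 6.27% of 10451 genes were called and 3.04% were lower. In Neurons_1 only Slc1a3 was, at -1.32 ± 0.26 (adjusted p = 0.0448), where 25.2% of 19926 genes were called and 12% were lower. DESeq2 called 1 of the 10 in oligodendrocytes, Agt, where it called 2.34% of all genes, and 0 in OPCs, where it called 1.03%. For the fits that follow, the share of all genes called moved as well, and the counts of members are not set against it. Dropping the genotype term alone took the calls from 7 to 1 in oligodendrocytes, from 7 to 4 in OPCs and from 2 to 0 in microglia, and from 1 to 3 in Neurons_1. Without that term and without the TRα1+m library of repeat 1, 0 of the 10 genes were called in each of the 4 clusters. Without the WT library of repeat 1 the calls were 0 in oligodendrocytes and microglia, 6 in OPCs and 4 in Neurons_1, and without the TRα1+m library of repeat 2 they were 1, 2, 3 and 2 in oligodendrocytes, microglia, OPCs and Neurons_1.

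The same interaction term tested whether the repeat effect in each of these 4 clusters differed from that in astrocytes. It does not test for an opposite direction, and it was added after the data were seen. The repeat effect was called lower than in astrocytes for 7 of the 10 genes in oligodendrocytes, 8 in OPCs, 6 in Neurons_1 and 3 in microglia, where 1.73%, 0.842%, 3.38% and 0.124% of genes were called lower. Agt differed in all 4, by -2.68, -2.63, -2.53 and -1.21 on the log2 scale. In microglia the direction was that of astrocytes, since Agt was 1.77-fold and 1.06-fold higher in repeat 2 of WT and TRα1+m. The number of all genes called moved between the fits that follow, and their counts of members are not set against it. In fits without the genotype term, leaving out the TRα1+m library of repeat 1 gave 0 calls in oligodendrocytes, 4 in OPCs, 3 in Neurons_1 and 1 in microglia, and leaving out that of repeat 2 gave 6, 5, 7 and 0. Without the WT library of repeat 1 the calls were 2, 6, 5 and 5.

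In oligodendrocytes, microglia and OPCs the group's own markers moved with the repeats, as did the tanycyte markers in tanycytes given above. In astrocytes the 7 astrocyte markers summed to 6152 and 6597 CPM in repeat 1 of WT and TRα1+m. In repeat 2 they summed to 8086 and 9682 CPM, and they include the members Agt, Aqp4, Slc1a2 and Slc1a3. The 6 oligodendrocyte markers summed in oligodendrocytes to 10230 and 9245 CPM in repeat 1 and to 18967 and 22756 CPM in repeat 2 of WT and TRα1+m, and the 6 microglial markers in microglia to 3739 and 3173 and then to 9030 and 11009 CPM. The 3 OPC markers in OPCs summed to 1750 and 1493 and then to 2297 and 2275 CPM. The 5 ependymal markers went from 137 and 136 to 31.7 and 20.2 CPM in oligodendrocytes, without a test. Markers of the group's own type were thus higher and ependymal markers lower in repeat 2 in these nuclei, and the part of this in the members' repeat differences was not tested. The 6 neuronal markers moved little in Neurons_1, with sums of 3444 and 3485 CPM in repeat 1 and 3675 and 3582 CPM in repeat 2. The 5 ependymal markers were lower in repeat 2 there too, going from 56.0 and 55.6 to 22.9 and 21.2 CPM. Over all nuclei pooled they went from 92.0 and 105 to 35.6 and 33.0 CPM. In Neurons_1, which should lack Agt, it stood at 31.8 and 48.2 CPM in repeat 1 and at 23.7 and 18.6 CPM in repeat 2 of WT and TRα1+m, and the part of free RNA in these values was not tested.

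Among neurons the members were highest in the sub-cluster labelled MCH Neurons, with 2085 nuclei. Slc1a2 stood at 597 and 629 CPM in repeat 1 and at 553 and 427 CPM in repeat 2 of WT and TRα1+m there, and Slc1a3 at 423 and 363 and then at 193 and 147 CPM. The other 13 neuronal sub-clusters had mean Slc1a2 levels of at most 205 CPM and mean Slc1a3 levels of at most 83.2 CPM. Agt averaged 113 CPM in the sub-cluster labelled MCH and at most 41.5 CPM in the others.

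The wider pathways were read from 8 lists, and their counts for repeat stand beside 17.4% of all genes called in astrocytes, 8.42% higher. For genotype in astrocytes fitted without the block, 0 of the non-member genes tested in the 8 lists were called by edgeR. The lists were not read in the fit with the block, which called 1.74% of all genes. For repeat, transmitter uptake and recycling had 4 of its 12 other genes called, all higher, among them the amino acid transporter Slc7a10 (0.91 ± 0.12, SE, log2), the glycine transporter Slc6a9 (0.74) and the glutamine transporter Slc38a3 (0.52). Water and ion balance had 4 of 13 called, all higher, among them Mlc1, the endfoot membrane protein (0.86 ± 0.12), the chloride channel Clcn2 (0.90) and the sodium pump subunit Atp1b2 (0.45). The median repeat values of these lists, without the members, were 0.28 and 0.15, against 0.01 over all genes.

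Of 6 other gap junction and hemichannel genes tested 2 were called, with connexin 26, Gjb2, at 8.0 and 7.1 CPM in repeat 1 and at 30.3 and 24.6 CPM in repeat 2 (1.81 ± 0.24, SE, log2), and the pannexin Panx2 lower (-0.99). Glycolysis and energy supply had 6 of 15 called, 5 higher and 1 lower: the glucose transporter Slc2a1 (0.90), the lactate carrier Slc16a1 (0.79) and the phosphofructokinase Pfkp (0.48) were higher, and Gapdh was lower (-0.91 ± 0.12). Intermediate filaments and reactive astrocytes had 2 of 8 called, the complement gene C4b higher (0.49) and S100b lower (-0.90). C4b stood at 34.8 and 45.1 CPM in WT and at 93.6 and 145 CPM in TRα1+m. It was not called for genotype in the fit without the block, and its blocked fit was not read. Among other astrocyte genes 13 of 20 were called, 9 higher, with the protease Htra1 at 1.23 ± 0.12, and 4 lower, among them the metallothioneins Mt3 (-2.29 ± 0.13), Mt1 (-1.65) and Mt2 (-1.35). Counts such as 2 of 8 lie near the share over all genes. In the renin-angiotensin system only 2 of the 10 other genes could be tested and 1, the prorenin receptor Atp6ap2, was called (0.34 ± 0.13), and of 4 telencephalic genes tested 1 was, Mfge8 (0.88).

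Likeness of pattern was measured as Pearson's r of log2(CPM + 1) over 24 points, the 6 groups of nuclei in 4 libraries, against 11488 genes, and points of 1 library share its preparation. The closest genes were Hsd11b1 (r = 0.980) and Ntsr2 (0.973) for Agt, Sdc4 (0.972) and Acsbg1 (0.965) for Aqp4, and Sdc4 (0.983) and Rdh5 (0.969) for Gja1. For Slc1a2 they were Ptch1 (0.977) and Plpp3 (0.975), for Slc1a3 Nfia (0.954) and Mlc1 (0.943), and for Slc6a11 Entpd2 (0.968) and Sparcl1 (0.967). Gfap was closest to C4b (0.924) and Ndrg2 (0.921), and Gjb6 to Gna13 (0.948) and Id2 (0.941). Glul was closest to Scd1 (0.938) and Tagln3 (0.933), and Aldoc to Tagln3 (0.949) and Rida (0.942). Among the members the most alike pair was Gja1 and Aqp4 (0.980) and the least alike pair Glul and Slc1a2 (0.592).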

How the data were processed

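Per the labels and the study's methods, the authors generated the deposited UMI counts with Cell Ranger 5.0.1 against mm10, introns included, and removed nuclei under 900 UMIs and predicted doublets; the deposited annotation gave each nucleus its cluster. Raw counts were summed per library and group of nuclei and tested with edgeR 4.0.16 in R 4.3.3 (quasi-likelihood, filterByExpr, TMM, Benjamini-Hochberg over all genes of a group, adjusted p under 0.05). Genotype was fitted without a block and with the repeat as a block, and repeat was fitted beside genotype. On the 4 libraries the fits with both terms left 1 residual degree of freedom, and the genotype fit without the block left 2. The variance of a gene was therefore estimated largely with information shared across genes. The repeats pair the samples because each experiment held both genotypes: repeat differences of the genotypes correlated across genes at r = 0.585 in astrocytes and 0.393 to 0.667 elsewhere. DESeq2 1.42.0 was an alternative. The test was checked on simulated counts. CPM is UMIs per 1000000 of the summed counts.

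The members and the 8 lists were chosen with earlier results of these data known. All 10 members are named. From each list at most 4 other genes are named, those with the smallest p in astrocytes among those called (2 of these are not reported here), and for likeness the 2 most correlated genes of each member. In GENCODE M21, Slc1a3 overlaps Gm37310 and Glul overlaps Mir8114 on the same strand. Nothing says that pools were prepared apart beyond the repeat, so p-values refer to the spread between these pools. That spread was estimated largely across genes, and small p-values or standard errors do not measure a gene's own spread between pools.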

Additional observations from a re-analysis of the deposited data

Results flagged for a closer look

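The repeat effect differed between astrocytes and other groups of nuclei by a test of the difference itself. For tanycytes minus astrocytes, on the log2 scale, it was -1.15 for Agt, -1.55 for Aqp4, -0.68 for Gja1, -1.85 for Gjb6 and -0.61 for Slc6a11. For oligodendrocytes minus astrocytes it was -2.68 for Agt, -1.92 for Aqp4, -0.995 for Gfap, -0.71 for Slc1a2, -1.51 for Gja1, -2.04 for Gjb6 and -1.41 for Slc6a11. For OPCs minus astrocytes it was -2.63 for Agt, -2.03 for Aqp4, -1.23 for Gfap, -1.65 for Gja1, -2.50 for Gjb6, -1.20 for Slc6a11, -0.72 for Glul and -0.68 for Aldoc. For Neurons_1 minus astrocytes it was -2.53 for Agt, -1.14 for Gfap, -0.74 for Slc1a2, -1.38 for Slc1a3, -1.19 for Slc6a11 and -0.48 for Aldoc, and for microglia minus astrocytes -1.21 for Agt, -1.18 for Aqp4 and -1.51 for Gjb6. Without the TRα1+m library of repeat 1 and without a genotype term, the oligodendrocyte calls listed here were all lost. Fewer members than listed were then called for tanycytes, OPCs, Neurons_1 and microglia. Fewer of all genes were called as well, in the tanycyte comparison and in the 4 others together.

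The genotype effect on Glul differed between oligodendrocytes and astrocytes with the repeat as a block, by -0.98.

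The 36 nuclei labelled VLMC in the TRα1+m library of repeat 2 were in no comparison above, and 5 members stood higher in them than in the astrocytes of that library beyond counting error (95% exact Poisson interval, 1 library, no test between conditions). Aqp4 was at 1367 CPM (1144 to 1620) against 731, Slc1a3 at 3206 against 1909, and Glul at 524 (390 to 689) against 319. Slc1a2, at 4275 (3874 to 4706) against 3818, and Slc6a11, at 2908 (2579 to 3267) against 2555, only just cleared the interval. Agt, by contrast, had 3 UMIs, or 30.8 CPM (6.4 to 90.1), against 2287 CPM. Gja1 was lower too, at 976 CPM (790 to 1193) against 1339. For Gfap, Gjb6 and Aldoc the astrocyte level lay inside the interval. The markers were mixed on the label: 6 of the 7 VLMC markers had no UMI in these nuclei, and the remaining marker stood at 678 CPM. All 7 together summed to 51.5 CPM in the astrocytes of that library. The paper describes this sub-cluster as Igfbp2-positive, and Igfbp2 is among the 7. All 7 astrocyte markers were detected in them, with a sum of 9711 CPM. The intervals leave out the spread between nuclei.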

How the results depend on the processing

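With 2 pools per group the limit is the number of pools, and members at a few CPM in other groups rest on few UMIs. The genotype call of members in astrocytes moved from 0 of 10 to 2 under the replicate block and in the bias-adjusted fit with the block (2), and stayed at 0 under the other alternatives; in the other main clusters it moved from 0 to 3 under the block and in the bias-adjusted fit with it (3), and ran from 0 to 2 without 1 library, where Glul and Gjb6 were called in oligodendrocytes without the TRα1+m library of repeat 1. In tanycytes, and in the tanycyte and astrocyte difference, it stayed at 0 under every alternative run. Genes called for genotype in astrocytes were 0, then 245 with the block, 250 with the bias-adjusted block, 33 without the filter, 2 by DESeq2, 13 by DESeq2 with the block, and 0 to 5 without 1 library. In tanycytes they were 0, then 54, 59, 7, 0 and 3 in the same order, and 0 without any 1 library. In the other main clusters they were 13, then 651, 609, 140, 75, 147 and 1 to 270. For the genotype difference they were 1, then 41 with the block, 16 without the filter, 0 in the bias-adjusted fit and 0 to 7 without 1 library.

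Members called for repeat in astrocytes were 6, and 3 to 5 without 1 library, fitted without a genotype term. In tanycytes they were 0, and 0 to 1. In the other main clusters they were 17, then 8 without the genotype term, 3 by DESeq2, and 0 to 22 without 1 library. Genes called for repeat in astrocytes were 2453, then 1060 without the genotype term, 412 by DESeq2, 1512 with nuclei thinned, 1174 without nuclei carrying other cell types' markers, and 280 to 2502 without 1 library. In tanycytes they were 1583, then 282 by DESeq2, 313 thinned, 369 without such nuclei, and 714 to 1108 without 1 library. In the other main clusters they were 8531, then 5665 without the genotype term, 3021 by DESeq2, and 2368 to 8649 without 1 library. For the repeat difference, in fits added after the data were seen, tanycytes kept 5 members without the genotype term and 2 to 4 without 1 library, with 520 genes, then 316 and 104 to 416. The 4 other clusters gave 24 members, and 8 to 33 without 1 library, with 2074 genes, then 1112 without the genotype term and 440 to 1730.

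Of 707 alternative genotype values of single members 12 became called and 0 reversed a call, and 90 uncalled ones changed sign; of 587 repeat values 83 lost and 25 gained a call. Aldoc in tanycytes was 265 CPM, and 307 as the mean of each nucleus's own CPM. The mean share of astrocyte nuclei with a UMI, without thinning, was 46.3% for Aqp4, 13.4% for Gfap, 97.5% for Slc1a2, 91.9% for Slc1a3, 80.5% for Gja1, 30.9% for Gjb6, 92.1% for Slc6a11, 44.0% for Glul and 53.4% for Aldoc.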

Other observations

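The cluster labelled non-neuronal held 57, 36, 80 and 34 nuclei in WT repeats 1 and 2 and TRα1+m repeats 1 and 2 and was not tested. The paper reports markers of both astrocytes and oligodendrocytes in this cluster, with higher doublet scores. In the same order the astrocyte markers summed there to 4383, 5026, 4541 and 5899 CPM. The oligodendrocyte markers summed to 5483, 8956, 5437 and 12580 CPM. The part of this mixture in the values below was not tested. Slc1a2 stood there at 1857, 1696, 2016 and 2435 CPM. Agt stood there at 376 and 578 CPM in repeat 1 and at 1090 and 1116 CPM in repeat 2 of WT and TRα1+m. Its repeats did not overlap, as in astrocytes, and the share of all genes for which this holds was not computed. Slc6a11 stood at 866 and 843 CPM in repeat 1 and at 1730 and 1380 CPM in repeat 2, and Gjb6 at 59.9 and 66.1 and then at 218 and 114 CPM. Slc1a3 stood at 1465, 1417, 1318 and 1442 CPM.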
